A study of Mus musculus with 10 samples.

Results

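The core loop of the circadian clock was examined in mouse liver through 10 genes: the activators Arntl, Clock and Npas2, the cryptochromes Cry1 and Cry2, the period genes Per1, Per2 and Per3, and the REV-ERB genes Nr1d1 and Nr1d2. They were taken by symbol, with earlier results of these data known, and all 10 were found among the 24421 genes of the count table. Hepatic mRNA was sequenced from 10 male wild-type C57BL/6 mice (C57BL/6 J in the study's methods) that fed ad lib, with 1 library from each mouse, and the labels give their age as 21 weeks. The Chow group (n = 5) received chow alone. The TM5614 group (n = 5) received chow that contained TM5614, a small molecule taken by mouth, at 20 mg/kg/day over 10 days. Neither the labels nor the study's methods give the hour at which any liver was collected, so a difference in sampling time and the treatment cannot be told apart here.

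In the mammalian clock, a heterodimer of BMAL1 (the product of Arntl) with CLOCK or its relative NPAS2 binds E-boxes and activates the Per, Cry and Nr1d genes. PER and CRY proteins then enter the nucleus and repress that heterodimer, while the REV-ERB proteins repress Arntl. The loop turns about once a day, so in liver the transcripts of these genes rise and fall with the time of day, and Arntl peaks roughly opposite to the Per and Nr1d genes. D-boxes, the sites of DBP, TEF, HLF and the repressor NFIL3, form another layer of this control.

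Total counts were between 6398335 and 10874955 per library, and 11092 genes passed the filter on low counts. Libraries are compared within a gene as CPM, counts scaled to a common library size with TMM factors. Hepatocyte markers summed to between 91449 and 119632 CPM per library, with none of the 6 called between the groups. The 5 stellate cell markers, of which none was called, summed to 143 to 252.1 CPM in Chow and 233 to 506 CPM in TM5614, highest in TM5614 replicate 2, and their part in the results was not tested. Chow replicate 2 stood apart, with a mean correlation of 0.927 with its own group against 0.965 to 0.982 elsewhere, and a trend with GC content and gene length held 46.0% of its deviations against 0.763% to 11.5% in the other 9 libraries. In TM5614 replicate 2, the 6 skeletal muscle markers summed to 3593 CPM, against 0.606 to 62.4 CPM in the other 9 libraries. Values without these libraries are given below where they change a call or a level.

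Arntl and Clock, of the activating arm, rose in TM5614 livers, and Cry2, Per1 and Per3, of the repressing arm, fell. Of the 10 genes, 9 passed the filter on low counts, since Npas2 did not, and 5 of the 9 were called by edgeR's quasi-likelihood test at an adjusted p under 0.05 over all genes tested. Those called higher were 2, where 1.73% of all genes tested were called higher, and those called lower were 3, where 2.77% were called lower and 4.50% were called in either direction. The groups did not overlap in CPM for these same 5 genes, against 8.93% of all genes tested. Cry1, Per2, Nr1d1 and Nr1d2 were not called. The median log2 fold change of the 9 was -0.27, against 0.01 over all genes tested. Arntl passed the filter through its TM5614 libraries, so these counts and the median are a description only. In bulk tissue, fewer cells of a type and less RNA per cell cannot be told apart.

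**Figure D1:**
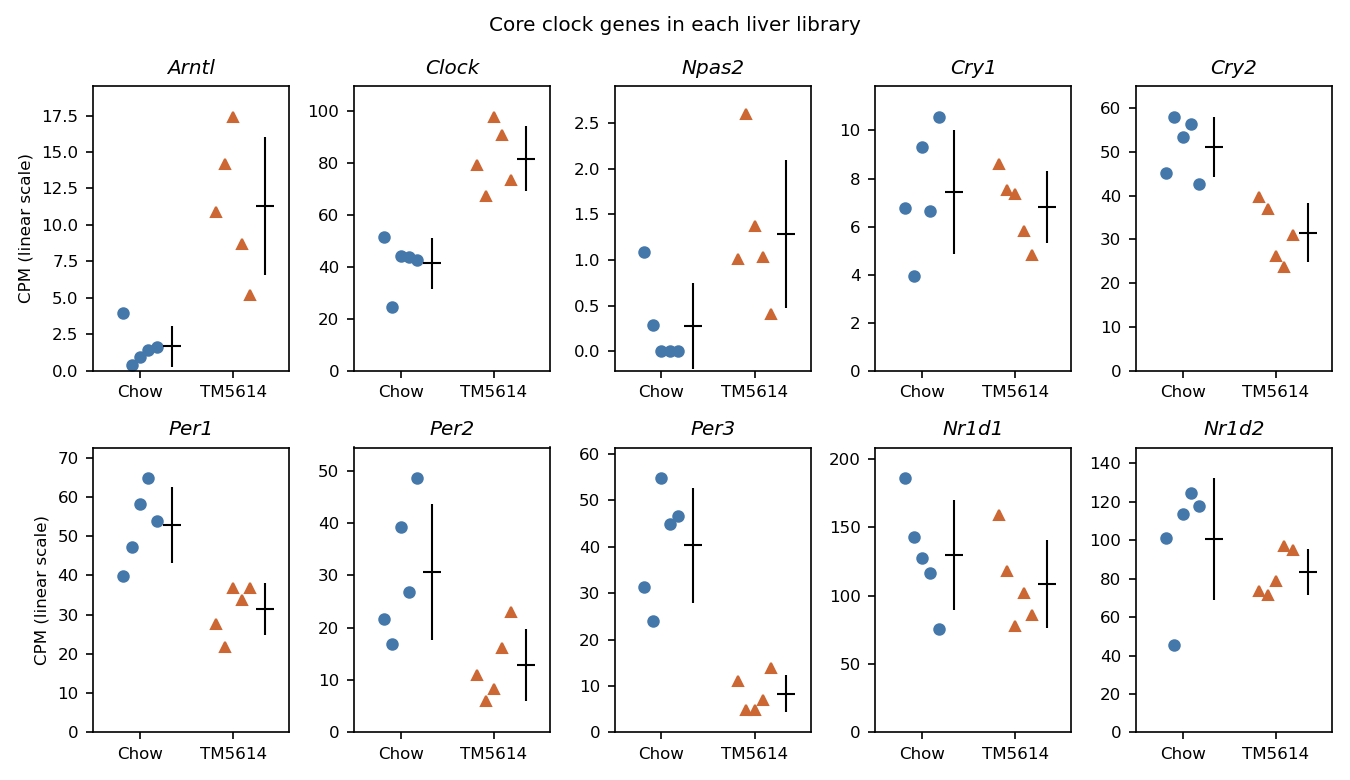
CPM (linear scale) of each of the 10 core clock genes, with 1 point per library, Chow as circles and TM5614 as triangles (n = 5 each), and the group mean ± SD as a bar beside the points. All TM5614 libraries lie above all Chow libraries for Arntl and Clock and below them for Cry2, Per1 and Per3, while the groups overlap in the other 5 genes.

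Arntl, which encodes BMAL1 and lies on the plus strand of chromosome 7 between positions 113207465 and 113314126 (GRCm38, the assembly named mm10), showed the largest rise of the loop. In Chow replicates 1 to 5 it was at 4.00, 0.386, 0.940, 1.43 and 1.66 CPM, and in TM5614 replicates 1 to 5 at 10.9, 14.1, 17.4, 8.68 and 5.23 CPM. Every TM5614 library was above every Chow library, with TM5614 replicate 5 nearest to Chow replicate 1. The means were 1.68 ± 1.39 CPM (SD, n = 5) and 11.3 ± 4.73 CPM (SD, n = 5). On the log2 scale the edgeR estimate was 2.76 (SE 0.48, adjusted p = 0.00659), a fitted rise of 6.79-fold. That change was at the 99.9 percentile of all genes tested. The Chow values rest on 33, 4, 9, 9 and 18 counts and the TM5614 values on 51 to 152, so the Chow level is known only roughly. The call held with each library left out in turn, with log2 fold changes from 2.48 to 3.35.

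Clock, the usual partner of BMAL1, lies on the minus strand of chromosome 5 between 76209868 and 76304792. It was at 51.4, 24.8, 44.3, 43.7 and 42.7 CPM in Chow replicates 1 to 5 and at 79.1, 67.3, 97.9, 90.7 and 73.4 CPM in TM5614 replicates 1 to 5. The groups were separate, and Chow replicate 2 was the lowest of the 10 libraries. The mean rose from 41.4 ± 9.90 to 81.7 ± 12.5 CPM (SD, n = 5 each), or by 0.98 on the log2 scale (SE 0.18, adjusted p = 0.00899 in edgeR). Its transcript is long and poor in GC (40.9%), and the values of Chow replicate 2 trended with both properties. The rise was 0.84 without that library (adjusted p = 0.000998) and 0.76 after the correction for GC content and length (adjusted p = 0.00168).

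Npas2, the other partner of BMAL1, was near the detection limit in the livers. It had 9, 3, 0, 0 and 0 counts in Chow replicates 1 to 5, a total of 12, and 7, 20, 12, 9 and 4 counts in TM5614 replicates 1 to 5, a total of 52. The groups overlapped, because Chow replicate 1 held 1.09 CPM and TM5614 replicates 1, 4 and 5 held 1.01, 1.03 and 0.411 CPM. The means were 0.276 ± 0.473 CPM and 1.28 ± 0.811 CPM (SD, n = 5 each), and TM5614 replicate 2, the library with the muscle markers, held the highest value, 2.60 CPM. In an exact two-sided permutation test of CPM, added after the data were seen and not adjusted for other genes, the difference of 1.01 CPM gave p = 0.0317 (n = 5 each). Without TM5614 replicate 2 it was 0.679 CPM (exact permutation p = 0.0714), and without Chow replicate 2 as well it was 0.682 CPM (exact permutation p = 0.114). When all 17291 genes with a count were fitted without a filter, edgeR gave a log2 fold change of 2.17 ± 0.88 (SE) and an adjusted p of 0.253, so no change was called.

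The period genes encode PER1, PER2 and PER3, of which PER1 and PER2 carry most of the repression of the loop. Per1 and Per3 fell in TM5614 livers and Per2 was not called, and the fall of Per3 was the strongest among the 9 genes tested. Per3 lies on the minus strand of chromosome 4 between 151003652 and 151044665. It was at 31.4, 24.0, 54.8, 44.8 and 46.6 CPM in Chow replicates 1 to 5 and at 11.1, 4.93, 4.82, 7.08 and 13.9 CPM in TM5614 replicates 1 to 5. The lowest Chow library, replicate 2, was still above the highest TM5614 library, replicate 5. The means were 40.3 ± 12.4 and 8.35 ± 3.98 CPM (SD, n = 5 each), a difference of -2.27 on the log2 scale (SE 0.32, adjusted p = 0.00195 in edgeR) that put Per3 at the 0.144 percentile of all genes tested. The fall was called under every alternative run, 20 in all.

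The 250 bases upstream of the Per3 start (RefSeq, GRCm38.p6, minus strand, chr4:151044666-151044915) are shown because no other window of the loop held a D-box, here sought as TTATGTAA or TTACGTAA on both strands. Capitals mark the D-boxes.
Per3: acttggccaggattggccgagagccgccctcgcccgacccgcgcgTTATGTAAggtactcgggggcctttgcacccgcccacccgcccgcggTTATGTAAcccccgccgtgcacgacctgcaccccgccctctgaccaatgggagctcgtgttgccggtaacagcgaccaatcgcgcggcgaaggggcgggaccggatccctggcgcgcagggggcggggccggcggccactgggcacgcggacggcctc
The matches lie 205 to 198 and 158 to 151 bases before the start. Of 32851 mouse promoter windows of this length 0.931% held a D-box, and 7 windows (0.0213%) held 2 or more. The minimum of 2 is the number in the Per3 window itself, so that share is a description only. Dbp and Tef, which encode activators that bind D-boxes, were also lower in TM5614 livers. Hlf, a relative of Dbp, and Nfil3, which encodes a D-box repressor, missed the threshold over all 10 libraries (values given with the other clock genes). Whether any of these genes has a part in the fall of Per3 was not tested. A match of letters does not show that a factor binds there.

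Per2, on the minus strand of chromosome 1 between 91415982 and 91459324, was at 21.6, 17.0, 39.1, 26.8 and 48.6 CPM in Chow replicates 1 to 5 and at 10.9, 5.97, 8.26, 16.1 and 23.0 CPM in TM5614 replicates 1 to 5. The groups overlapped, since TM5614 replicate 5 was above Chow replicates 1 and 2. The Chow mean was 30.6 ± 13 CPM and the TM5614 mean 12.8 ± 6.81 CPM (SD, n = 5 each). The log2 fold change of -1.25 ± 0.37 (SE) missed the threshold in edgeR (adjusted p = 0.0835) and passed it in DESeq2, the study's own tool (-1.25, adjusted p = 0.0143). It also passed without Chow replicate 2 (-1.40, adjusted p = 0.0222) and without TM5614 replicate 5 (-1.57, adjusted p = 0.0393).

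Per1, on the plus strand of chromosome 11 between 69095217 and 69109960, was at 39.8, 47.3, 58.1, 64.8 and 53.8 CPM in Chow replicates 1 to 5 and at 27.7, 21.7, 36.8, 33.8 and 36.8 CPM in TM5614 replicates 1 to 5. The groups did not overlap, with a narrow gap between TM5614 replicates 3 and 5 and Chow replicate 1. The mean fell from 52.8 ± 9.67 to 31.4 ± 6.58 CPM (SD, n = 5 each), by an edgeR estimate of -0.75 on the log2 scale (SE 0.17, adjusted p = 0.0304). The call was not firm, and it held in 12 of the 20 alternatives run. It passed in DESeq2 (-0.75, adjusted p = 0.00202) and in limma-voom (-0.73, adjusted p = 0.00531). After the correction for GC content and length the estimate was -0.59 and did not pass (adjusted p = 0.0963). The call was also lost without any 1 of Chow replicates 3, 4 and 5 or TM5614 replicates 1, 2, 3 and 4, with adjusted p up to 0.0807.

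Whether the 3 period genes moved by the same amount was tested on their ratio within each library, which does not depend on library scaling, with exact two-sided permutation tests adjusted over 6 pairs of related genes. The log2 ratio of Per1 to Per3 was 0.34, 0.97, 0.09, 0.53 and 0.21 in Chow replicates 1 to 5 and 1.31, 2.09, 2.88, 2.22 and 1.40 in TM5614 replicates 1 to 5, with no overlap. Per3 thus fell more than Per1, with a difference of 1.55 on the log2 scale (exact permutation p = 0.00794, the smallest that this design allows; adjusted p = 0.0476; n = 5 each). With each library left out in turn, this difference was between 1.33 and 1.72, and it passed the threshold in 9 of 10 such tests. The ratio of Per2 to Per3 differed by 1.01 (exact permutation p = 0.0159, adjusted p = 0.0476), but the groups overlapped and it passed in only 2 of 10 tests with a library left out. The ratio of Per1 to Per2 differed by 0.54 (exact permutation p = 0.167, adjusted p = 0.250), so a difference between these paralogs was not shown. Without Chow replicate 2 and TM5614 replicate 2 the first 2 differences were 1.66 and 1.08, and neither passed (exact permutation tests, adjusted p = 0.171 for both). With so few libraries the smallest p is too large for only 1 or 2 of the 6 pairs to pass, so that test could not decide.

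Of the cryptochromes, the most potent repressors of CLOCK and BMAL1, Cry2 fell and Cry1 was not called. Cry2, on the minus strand of chromosome 2 between 92403646 and 92434043, was at 45.2, 58.1, 53.5, 56.4 and 42.6 CPM in Chow replicates 1 to 5 and at 39.6, 36.9, 26.3, 23.8 and 31.1 CPM in TM5614 replicates 1 to 5. The groups were separate, with Chow replicate 5 just above TM5614 replicate 1. The mean fell from 51.2 ± 6.87 to 31.5 ± 6.75 CPM (SD, n = 5 each), and the edgeR estimate was -0.70 on the log2 scale (SE 0.16, adjusted p = 0.0271). The call was lost without any 1 of Chow replicates 3 and 4 or TM5614 replicates 3, 4 and 5 (adjusted p from 0.0662 to 0.0906), while the change stayed between -0.79 and -0.61. A noncoding transcript, D930015M05Rik, shares 295 exonic bases with Cry2 on the other strand, and it had at most 1 count in any library.

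Cry1, on the minus strand of chromosome 10 between 85131700 and 85185064, was at 6.79, 3.95, 9.29, 6.65 and 10.6 CPM in Chow replicates 1 to 5. In TM5614 replicates 1 to 5 it was at 8.62, 7.53, 7.34, 5.83 and 4.82 CPM, within the range of the Chow libraries. The log2 fold change was -0.14 (95% interval -0.69 to 0.41, edgeR adjusted p = 0.780), and it turned to 0.028 without Chow replicate 5. The interval leaves room for changes in either direction. The ratio of Cry1 to Cry2 was higher in TM5614 livers by 0.63 on the log2 scale, which was not beyond the spread of the libraries (exact permutation p = 0.0873, adjusted p = 0.175 over 6 pairs, n = 5 each). Without Chow replicate 5 that difference was 0.84 (exact permutation test, adjusted p = 0.0476).

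An E-box, the site of the BMAL1 heterodimers, was sought as CACGTG in the same 250-base windows. RefSeq windows matched 9 of the 10 genes, all but Per2, and only Per1 and Cry1 held the motif, as did 6.02% of all 32851 windows. The stretches around these matches, with the motif in capitals, are shown because Per1, which was called, and Cry1, which was not, share it.
Per1: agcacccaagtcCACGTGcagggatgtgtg
Cry1: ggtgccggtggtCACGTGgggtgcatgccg
They lie at chr11:69098771-69098800 on the plus strand and at chr10:85185097-85185126 on the minus strand of GRCm38.p6, 166 to 161 and 60 to 55 bases before the start for the motif itself. For Per1 that start is position 69098949, which lies inside the gene span given above. Another RefSeq start of Per1, at position 69100152, had a window without an E-box. The windows that held the motif each overlap an annotated exon of the same gene. The variant CACGTT was found in the windows of Cry1, Cry2 and Nr1d1 and in 3.85% of all windows. No window of the loop held the RORE core, sought as TAGGTCA or TGGGTCA, which 5.38% of all windows held. Sites outside these windows or in other letters were not sought.

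The REV-ERB genes, whose products repress Arntl, had the highest levels of the loop per gene length and were not called. Nr1d1, on the minus strand of chromosome 11 between 98767932 and 98775333, was at 186, 143, 127, 117 and 75.8 CPM in Chow replicates 1 to 5 and at 159, 118, 78.1, 102 and 85.6 CPM in TM5614 replicates 1 to 5. The TM5614 libraries lay within the range of the Chow libraries. The log2 fold change was -0.26 (95% interval -0.78 to 0.26, edgeR adjusted p = 0.558). The gene Thra shares 263 exonic bases with Nr1d1 on the opposite strand, 8.55% of the exonic bases of Nr1d1. Thra had 90 to 188 counts per library against 681 to 1535 of Nr1d1, and the use of strand in counting is not stated.

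Nr1d2, on the minus strand of chromosome 14 between 18204054 and 18239127, was at 101, 45.7, 114, 125 and 118 CPM in Chow replicates 1 to 5. In TM5614 replicates 1 to 5 it was at 73.7, 71.8, 79.0, 97.1 and 94.9 CPM. The 5 TM5614 libraries lay below 4 of the Chow libraries and above Chow replicate 2. The log2 fold change was -0.27 (95% interval -0.76 to 0.22, edgeR adjusted p = 0.520). The transcript of Nr1d2 is also poor in GC (41.8%), and without Chow replicate 2 the difference was -0.46 and passed the threshold (adjusted p = 0.0193). With GC content and length corrected over all 10 libraries it was -0.42 and did not pass (adjusted p = 0.0860). The ratio of Nr1d1 to Nr1d2 differed by -0.05 between the groups (exact permutation p = 0.905, adjusted p = 0.905), and by 0.27 without Chow replicate 2.

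**Figure D2:**
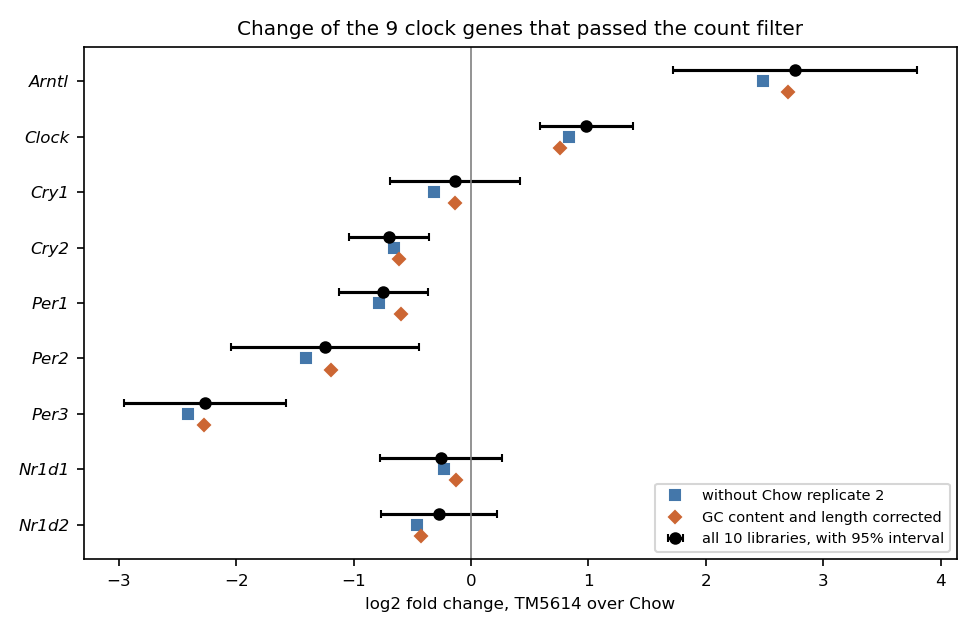
Log2 fold change of TM5614 over Chow for the 9 genes that passed the count filter, from edgeR over all 10 libraries with its 95% interval (circles), without Chow replicate 2 (squares) and with GC content and length corrected (diamonds). Arntl and Clock lie to the right of 0 and Per3 to the left in all 3 versions, while the intervals of Cry1, Nr1d1 and Nr1d2 cross 0.

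Levels of different genes are compared as FPKM, which are scaled by gene length. In the Chow livers the order was Nr1d1 (46.4 FPKM), Nr1d2 (21.4), Cry2 (12.6), Per1 (11.1), Per3 (6.59), Per2 (5.18), Clock (4.12), Cry1 (2.44), Arntl (0.572) and Npas2 (0.0655). Only Nr1d1 and Nr1d2 were neighbours whose ranges over libraries did not overlap. In the TM5614 livers the order was Nr1d1 (38.7 FPKM), Nr1d2 (17.7), Clock (8.12), Cry2 (7.76), Per1 (6.59), Arntl (3.82), Cry1 (2.23), Per2 (2.18), Per3 (1.36) and Npas2 (0.301). There, Nr1d2 and Clock, and Per3 and Npas2, did not overlap either. Clock thus stood below Cry2, Per1, Per2 and Per3 in Chow and at the head of them in TM5614, and Per3 went below Arntl, Cry1 and Per2. The ranges of Clock, Cry2 and Per1 overlapped in the TM5614 livers, so their order there is not firm.

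**Figure D3:**
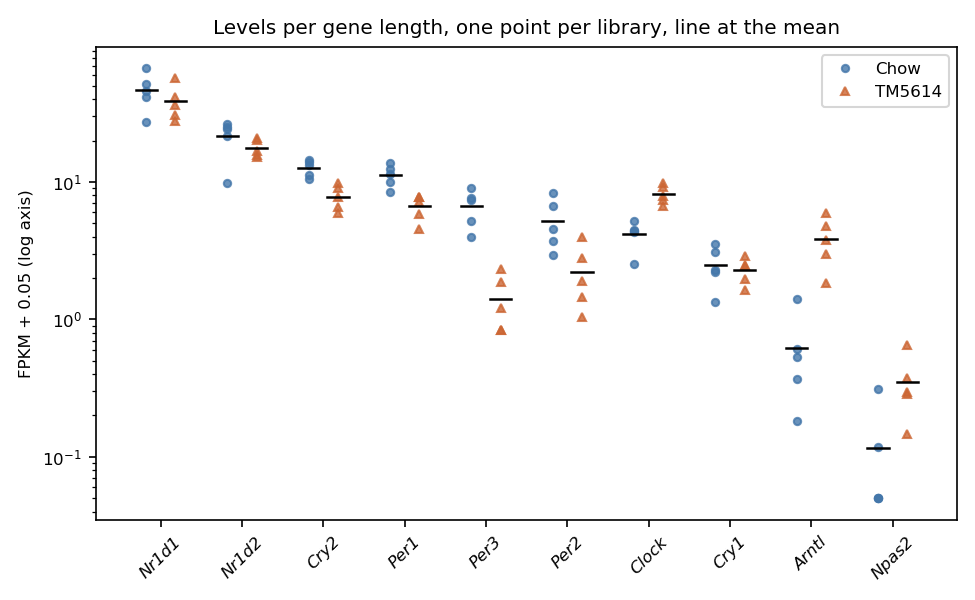
FPKM (log axis, with 0.05 added so that values of 0 can be drawn) of the 10 genes in each library, ordered by the Chow mean, with Chow as circles, TM5614 as triangles and a line at each group mean (n = 5 each). Nr1d1 and Nr1d2 lead in both groups, and Arntl and Clock move up while Per3 moves down the order.

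The loop genes were also compared among mice of the same group. TM5614 replicate 5 had the lowest Arntl of its group and the highest Per2 and Per3, and TM5614 replicate 3 had the highest Arntl and the lowest Per3. Over the 10 libraries, with each group's mean taken out of log2 CPM, Per2 and Per3 had a Pearson r of 0.83 (Spearman rho 0.82), and 0.71 without Chow replicate 2 and TM5614 replicate 2. Arntl and Per3 had an r of -0.28 (rho -0.31), which was -0.83 over the 8 libraries left without those replicates and -0.40 after the GC and length correction. Clock and Per3 went from 0.21 to -0.96 and -0.51 in the same versions. Nr1d1 ran opposite to Per1 (-0.64, -0.72 and -0.43), Per2 (-0.50, -0.48 and -0.29) and Nr1d2 (-0.37, -0.56 and -0.11) in these versions. Against Per3 its r was -0.13, 0.021 and 0.073. Nr1d2 ran with Per1 (0.45, 0.70 and 0.70), Per2 (0.65, 0.69 and 0.73) and Per3 (0.58, 0.31 and 0.65). Of 36 pairs of tested genes, 22 kept the sign of r in all 3 versions. These values describe 10 libraries, whose points share depth and GC content, and no test was made of them.

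**Figure D4:**
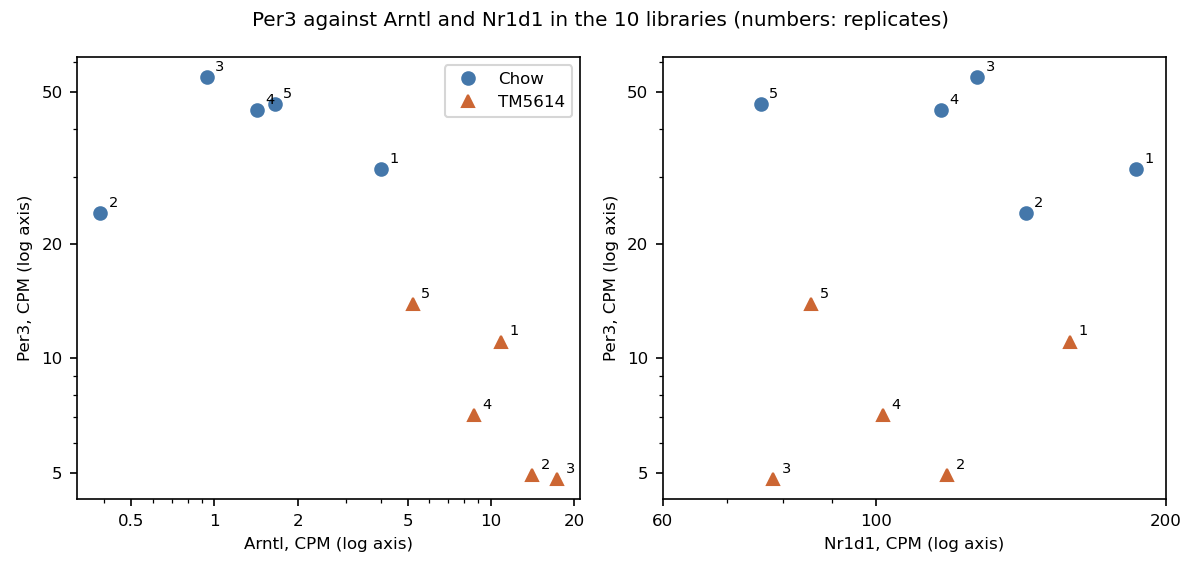
CPM of Per3 against CPM of Arntl (left) and of Nr1d1 (right) in the 10 libraries, on log axes, with Chow as circles, TM5614 as triangles and the replicate number beside each point. The 2 groups occupy separate corners in the plot against Arntl, and they share the same range of Nr1d1.

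By likeness of these group-centred values among 8598 tested genes with a mean of at least 50 counts, Arntl was nearest to Rab12 (r = 0.95), Ssx2ip (0.94) and Dctn6 (0.93) over the 10 libraries, or 0.94, 0.89 and 0.97 without Chow replicate 2 and TM5614 replicate 2. It ran most opposite to Ap4s1, Tshz1 and Isg15 (each r = -0.93). None of these 6 genes was called between the groups. Nr1d1 was nearest to Gpatch1 (r = 0.90), Mlf2 (0.90) and Scnn1a (0.89), and most opposite to Srsf4 (-0.88), Hsph1 (-0.87) and Cd163 (-0.87), of which Scnn1a was called lower and Hsph1 called higher in TM5614. No other gene of the loop was among these 12. Without those 2 libraries the sizes of r for Nr1d1 were 0.89 to 0.96. The highest of so many values over 10 libraries are high in any case, so they only name the genes.

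The other clock genes were taken from 4 lists of 40 genes in all, of which 38 were tested and 8 were called, 1 higher and 7 lower. This is 21.1% against 4.50% of all genes tested. The lists were chosen with earlier results of these data known, so these shares are a description only. The median log2 fold change of the 38 was -0.11, against 0.01 over all genes tested.

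Among 9 tested genes of the secondary loop and output factors, 4 fell and none rose, with a median of -0.82. Dbp, the activator of D-boxes, fell from 179 ± 57.9 to 45.1 ± 16.4 CPM (SD, n = 5 each), or by 1.99 on the log2 scale (SE 0.27, adjusted p = 0.00179 in edgeR). Chow replicate 2 had the highest Dbp of all libraries, and without it the log2 fold change was -1.78 (adjusted p = 0.000544). Ciart, which encodes a repressor of CLOCK and BMAL1, fell by 2.08 on the log2 scale (adjusted p = 0.00601). Tef, a relative of Dbp, fell by 0.90 (adjusted p = 0.00733), and another relative, Hlf, was at -0.51 (adjusted p = 0.100). Nfil3, the D-box repressor, was at 11.4 ± 3.29 CPM in Chow and 23.8 ± 8.52 CPM in TM5614, and its log2 fold change of 1.06 did not pass (adjusted p = 0.0610). After the correction for GC content and length both passed, with 1.19 for Nfil3 (adjusted p = 0.0200) and -0.68 for Hlf (adjusted p = 0.00549), and both passed without Chow replicate 2, with 1.13 (adjusted p = 0.0324) and -0.61 (adjusted p = 0.0159).

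Among 10 output genes of the clock in liver, 3 fell and 1 rose, with a median of -0.42. Usp2, a ubiquitin-specific protease under clock control, fell by 2.36 on the log2 scale (edgeR adjusted p = 0.00315). Wee1, a kinase that holds back entry into mitosis, fell by 2.04 (adjusted p = 0.00655). Tspan4, a tetraspanin, fell by 1.32 (adjusted p = 0.00655). Cdkn1a, which encodes the cell cycle inhibitor p21, rose from 1.97 ± 0.699 to 10.8 ± 4.87 CPM (SD, n = 5 each; log2 fold change 2.46 ± 0.36, SE, adjusted p = 0.00238). Its Chow values rest on 14, 17, 11, 16 and 31 counts in replicates 1 to 5, so that level is known only roughly.

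None of the 11 kinases and ubiquitin ligases that act on PER and CRY was called, and their median log2 fold change was 0.07. None of the 8 coregulators was called either, with a median of -0.08. At 4.50% called over all genes tested, lists of 11 and 8 genes may well hold no call. All TM5614 libraries lay below all Chow libraries for 3 of the 8 coregulators and 1 of the 11 kinases and ligases. The same held for 540 of all 11092 genes tested. Without Chow replicate 2, 14 of the other clock genes were called in place of 8, 1 of them the coregulator Hdac3 (-0.29, edgeR adjusted p = 0.0414), while the share called over all genes tested went from 4.50% to 9.24%.

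**Figure D5:**
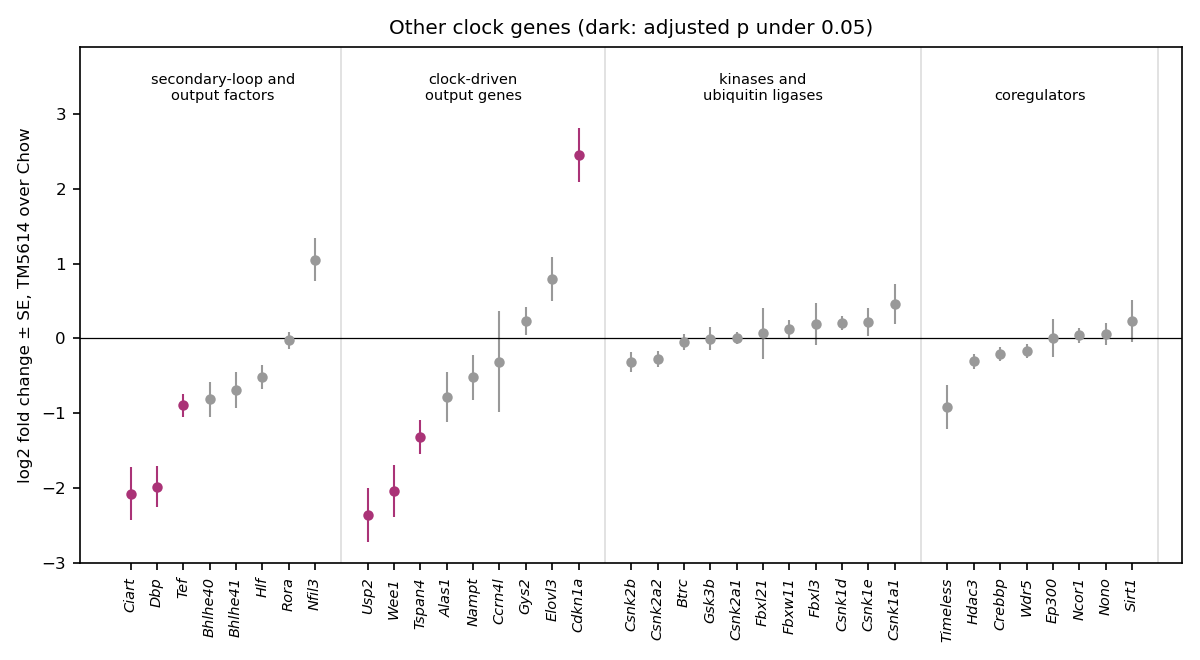
Log2 fold change ± SE of TM5614 over Chow for 36 tested genes of the 4 other clock lists, with the genes called by edgeR at an adjusted p under 0.05 in a dark colour. The calls sit among the secondary-loop and output factors and the output genes, 6 of those drawn below 0 and 1 (Cdkn1a) above, and none is among the kinases, ligases and coregulators.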

How the data were processed

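Poly(A) RNA libraries of 10 livers were analysed, grouped and numbered by sample title. Per the submitters' processing notes and the study's methods, reads were aligned with STAR to mm10; the gene annotation, tool versions and use of strand are not given in the sources used here. The authors deposited raw counts for each gene symbol, and FPKM values scaled by library and gene length. Deposited columns with the authors' own DESeq2 comparison (fold changes and p-values) and regularised log2 values were not used. The FPKM were used only to order levels.

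Counts were filtered with filterByExpr, scaled with TMM and tested for the group difference (two-sided, without a block) by the quasi-likelihood functions of edgeR 4.0.16 in R 4.3.3. P-values of all 11092 tested genes were adjusted together by Benjamini-Hochberg, and genes under 0.05 were called. SE was obtained as the size of the log2 estimate divided by the root of its F statistic, and 95% intervals used the degrees of freedom of that test. Log2 CPM had a prior count of 2. Alternatives were DESeq2 1.42.0, limma-voom (limma 3.58.1), other scalings and filters, a spline on GC content and length taken out as an offset, a block for replicate number, and libraries left out. The Npas2 tests on CPM, the correlations after GC and length correction and single other clock genes without a library were added after seeing the data. Scripts were tested on simulated data. Libraries of the same group (20 pairs) differed in their counts beyond sampling noise (chi-square over degrees of freedom of 8.00 or more), so each library was counted once.

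All 10 loop genes are named, other clock genes mainly where called, and for likeness the 3 genes at either end for Arntl and Nr1d1. Hlf, Nfil3, Hdac3, Bhlhe40, Nampt, Elovl3, Ccrn4l, Alas1 and overlapping genes were named after their values were seen. Some genes that enter the counts of the lists are not reported here by name and are not drawn. The members and lists were chosen with earlier results of these data known. Promoter windows and starts are RefSeq's on GRCm38.p6, and gene coordinates are GENCODE's on GRCm38.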

Additional observations from a re-analysis of the deposited data

Results flagged for a closer look

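Within the 5 libraries of a group, the highest or lowest value was compared with the others by Dixon's ratio and its 95% critical value for 24 measures in both groups. Of the 48 groups 4 were beyond it, where chance alone gives about 2.4. Npas2 was highest in Chow replicate 1, at 1.09 CPM against 0 to 0.289 CPM in the other Chow libraries. Dbp was highest in Chow replicate 2, at 277 CPM against 131 to 173 CPM. Usp2 was lowest in Chow replicate 1, at 66.6 CPM against 133 to 152 CPM, still above every TM5614 library. Ciart was highest in TM5614 replicate 5, at 12.3 CPM against 3.37 to 4.88 CPM, in the library that also had the lowest Arntl and the highest Per2 and Per3 of its group.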

How the results depend on the processing

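Arntl, Clock and Per3 kept their call and direction in every alternative that could be fitted; Arntl was not tested with at least 10 counts required in every library. Per2 passed the threshold in DESeq2 (-1.25), limma-voom (-1.33), with the replicate block (-1.29), with the block and the GC and length correction together (-1.26, chosen after seeing the data) and without Chow replicate 2 and TM5614 replicate 2 (-1.22). Nr1d2 passed in limma-voom (-0.41), with the block and correction (-0.41) and without both replicates (-0.41). Per1 did not pass with the correction alone (-0.59). Without both replicates the Per1 to Per3 (1.66) and Per2 to Per3 (1.08) differences did not pass, and Nr1d1 to Nr1d2 turned to 0.17. With 1 library left out in turn, log2 fold changes were 2.48 to 3.35 for Arntl, 0.84 to 1.07 for Clock, -0.32 to 0.028 for Cry1 (-0.36 without both replicates), -0.79 to -0.61 for Cry2, -0.84 to -0.64 for Per1, -1.57 to -1.01 for Per2, -2.54 to -2.12 for Per3, -0.44 to -0.11 for Nr1d1 and -0.46 to -0.19 for Nr1d2. Ratio differences were then 0.38 to 0.84 for Cry1 to Cry2, 0.48 to 1.17 for Npas2 to Clock (0.81 in the test reported, and 1.94 with a prior count of 0.5 in place of 2, adjusted p = 0.179 by the exact permutation test), -0.30 to 0.27 for Nr1d1 to Nr1d2, 0.36 to 0.72 for Per1 to Per2, 1.33 to 1.72 for Per1 to Per3 and 0.87 to 1.16 for Per2 to Per3.

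All genes called, 499 in the test reported, were 235 to 1031 with 1 library left out (the highest without Chow replicate 2), 900 in DESeq2, 1386 in limma-voom, 1230 without both replicates and 771 with block and correction. Loop genes called were 3 to 7 with 1 library left out, 3 of them without Chow replicate 3 or 4 or TM5614 replicate 3 or 4. Other clock genes called were 8 to 14, and 14 in limma-voom, without both replicates and with block and correction. Genes with an E-box were 4 when CACGTT was counted too. The labels share replicate numbers, but same-numbered deviations had r from 0.0316 to 0.318, not all over 0.1, so the numbers were not taken to pair the mice. Pairing by the clock genes alone was not tested. With the block the SE went from 0.37 to 0.21 for Per2 and from 0.24 to 0.13 for Nr1d1. It also fell for Clock, Per1, Per3 and Nr1d2, and it rose slightly for Arntl, Cry1 and Cry2. The block called 555 genes and, apart from that of Per2, changed no call of the loop. The cause of these changes was not tested. Low counts limit Npas2 and the Chow levels of Arntl and Cdkn1a.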

Other observations

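Ccrn4l (also called Noct), a gene with a strong daily rhythm in liver, differed within the groups more than between them. It was at 13.9, 10.4, 52.6, 78.3 and 64.2 CPM in Chow replicates 1 to 5 and at 8.90, 5.45, 35.2, 61.8 and 64.2 CPM in TM5614 replicates 1 to 5. In each group 2 libraries were low and 3 were high, and the difference between the groups was -0.31 ± 0.68 (SE, log2 fold change, edgeR adjusted p = 0.821). Alas1, the first enzyme of haem synthesis and a clock output, was at 546, 410, 725, 890 and 1056 CPM in Chow replicates 1 to 5 and at 247, 205, 466, 663 and 532 CPM in TM5614 replicates 1 to 5. It was lowest in replicates 1 and 2 of both groups too. Among the loop genes, Per1 and Nr1d2 were also lowest, and Nr1d1 highest, in replicates 1 and 2 of both groups. The other loop genes were not ordered in that way in both groups. Whether the replicate number has a part in the loop genes was not tested. The labels give no batch or hour of collection to set beside these values.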
